A study of Mus musculus with 9 samples.

Results

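Untreated mouse eyes were compared with the average of 2 other groups, to describe what those groups had in common relative to untreated tissue. RNA was sequenced from choroidal-retinal flat mounts of C57BL/6 mice, in 9 libraries, all of which enter the comparison: 3 of untreated mice, 3 of mice labelled CNV (choroidal neovascularisation) whose titles read wet-AMD, and 3 titled Betp-Gel@Ran, whose treatment label names an intravitreal BetP-Gel injection and 3 months. They are called the untreated, CNV and gel groups below. The labels give no age, sex, sampling time or batch for any group beyond those 3 months, and they do not say whether the gel mice also carried CNV lesions. Treatment, sampling time, age, dissection and library batch therefore cannot be told apart in this comparison. Whether the 3 libraries of a group are separate mice is not stated either, and the spread behind each p-value may be partly technical.

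Choroidal neovascularisation is the growth of vessels from the choroid, the vascular layer behind the retina, and in mice it is usually induced by damaging the membrane beneath the retinal pigment epithelium. Such damage draws in myeloid cells, sets off complement and chemokine expression, and activates the Müller glia that span the retina. A flat mount of the posterior eye also carries variable amounts of neighbouring tissue, including the extraocular muscles on the sclera, lens remnants and the anterior segment.

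Levels are given as FPKM, the usual expression unit scaled by gene length and library depth, and the 3 values of a group are in replicate order. Differences are untreated minus the mean of the CNV and gel group means on the log2(FPKM + 1) scale, which understates the change of low genes, and the value after ± is the standard error of the limma fit. A gene is called where its Benjamini-Hochberg adjusted p is under 0.05. Libraries held between 16990118 and 18753737 reads. Lens genes took 2.87% of the reads in untreated replicate 3 against 0.0177 to 1.02% in the other 8 libraries. The retina was represented in all libraries, with the rod transducin gene Gnat1 at 336 FPKM or more, and so was the pigment epithelium, with the visual cycle isomerase Rpe65 at 58.3 to 112 FPKM. The corneal keratin Krt12, of anterior tissue, was at 1383 to 5314 FPKM. Xist was listed at 0 in all 9 libraries and the Y-linked Ddx3y was at 11.5 to 14.6 FPKM.

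Differences between untreated tissue and the other groups spanned the measured transcriptome. Of 14086 genes tested, 3189 (22.6%) were called higher and 3158 (22.4%) lower in untreated tissue, 45.1% in all. Without regard to a call, all 3 untreated values lay above all 6 others for 18.3% of genes and below them for 17.8%. Genes both called and without overlap made up 17.5% of those tested on the higher side and 16.7% on the lower side. Most differences were small: 433 of the higher and 275 of the lower genes differed by at least 1 on the log2 scale. The median over all tested genes was -0.00695. With FPKM divided by its sum in each library, the calls split 2269 higher to 3611 lower, or 38.6% higher against 50.2% in the main split, and the median became -0.0715. Without untreated replicate 3, the lens-rich library, 2802 genes were called higher and 2700 lower.

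Most genes called in this comparison were not called between CNV and gel. Against each of these groups separately, 99.9% of the genes called higher and 99.1% of those called lower had the same sign, which the pooling favours. The differences stood side by side at a median of 0.51 against CNV and 0.42 against gel for the higher genes, and at -0.46 and -0.37 for the lower genes. A direct comparison of CNV with gel, which uses no untreated library, called 14.1% of all genes, 8.27% higher and 5.81% lower in CNV. It called 13.8% of the genes higher in untreated tissue and 24.6% of those lower. Of the 776 lower genes it called, 697 lay farther from untreated in CNV and 79 farther in gel. This count depended on single libraries: 1983 genes were called in all, 253 without CNV replicate 1, 342 without CNV replicate 2, 3089 without CNV replicate 3, and 1210, 469 and 647 without gel replicates 1, 2 and 3.

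**Figure D1:**
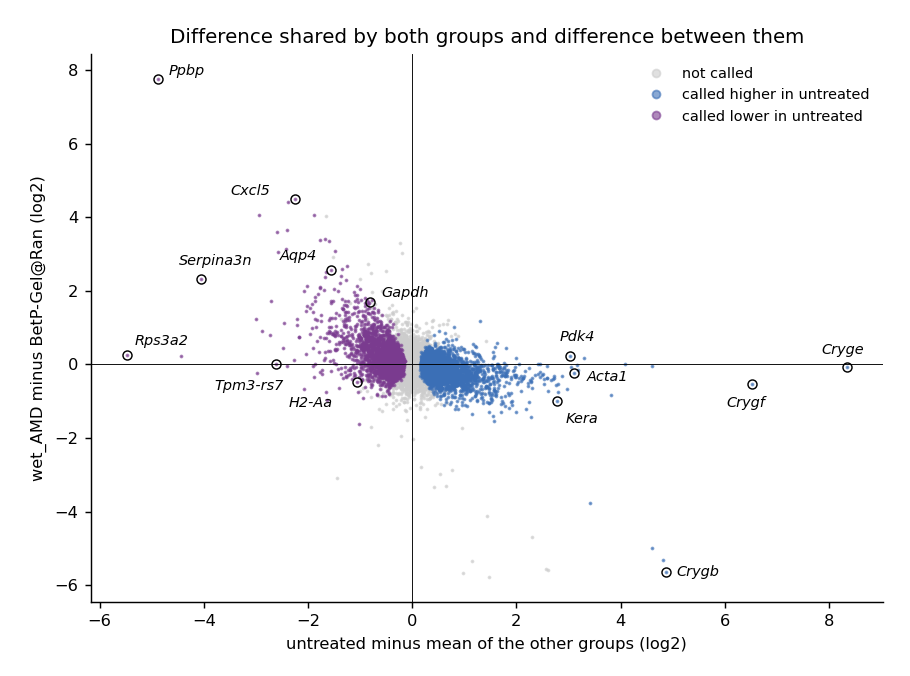
Each point is 1 of 14086 tested genes, with the difference of untreated from both other groups on the horizontal axis (log2) and the difference of CNV (wet_AMD) from BetP-Gel@Ran on the vertical axis (log2); named genes are circled. Genes near the horizontal line, such as Rps3a2 and Acta1, lay at a like distance from untreated in both groups (Acta1 3.22 and 2.98), and Ppbp and Aqp4 far from untreated in CNV but not in gel (Ppbp -8.75 against CNV).

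Striated muscle transcripts were higher in untreated tissue throughout. All 17 tested genes of the skeletal and extraocular muscle list were called higher in untreated tissue, against 22.6% of all genes. All 17 were called without overlap, against 17.5% of all genes. Their median difference was 2.36, with 2.51 against CNV and 2.21 against gel. Together they took 1.17 to 1.18% of reads in the untreated libraries, 0.194 to 0.333% in CNV and 0.275 to 0.336% in gel. In bulk samples, fewer cells of a type and less RNA per cell cannot be told apart.

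Acta1, the actin of skeletal muscle thin filaments, was at 1603, 1424 and 1647 FPKM in untreated tissue. It was at 138, 141 and 234 FPKM in CNV and at 218, 201 and 172 FPKM in gel. The 6 other libraries thus lay far below the untreated ones, without overlap, and the difference was 3.10 ± 0.17 (limma adjusted p = 4.11e-06). Myh1, a fast myosin heavy chain, was at 32.0, 38.0 and 28.3 FPKM in untreated tissue, at 2.54, 2.26 and 3.55 FPKM in CNV and at 2.95, 3.05 and 2.31 FPKM in gel. Its distance from untreated was 3.16 in either group. Actn2, the Z-disc alpha-actinin, gave 27.8, 32.2 and 23.8 FPKM against 1.61 to 2.85 FPKM over the other 6 libraries. Casq1, the calcium store protein of the sarcoplasmic reticulum, gave 93.7, 93.8 and 95.8 FPKM against 6.44 to 16.7 FPKM. Myh2, Smtnl1 and the cardiac actin gene Actc1 were also among the 12 genes farthest from both groups on the higher side. Actc1 stood at 84.2, 75.5 and 79.0 FPKM in untreated tissue, at 1.48 to 5.04 FPKM in CNV and at 6.15 to 7.50 FPKM in gel. The smallest difference in the list was that of parvalbumin, Pvalb, at 1.37 ± 0.17, a calcium buffer that retinal neurons also express. Myog, a myogenic transcription factor outside the list and noted after its values were seen, was at 3.78, 2.98 and 2.90 FPKM against 0.215 to 1.32 FPKM.

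**Figure D2:**
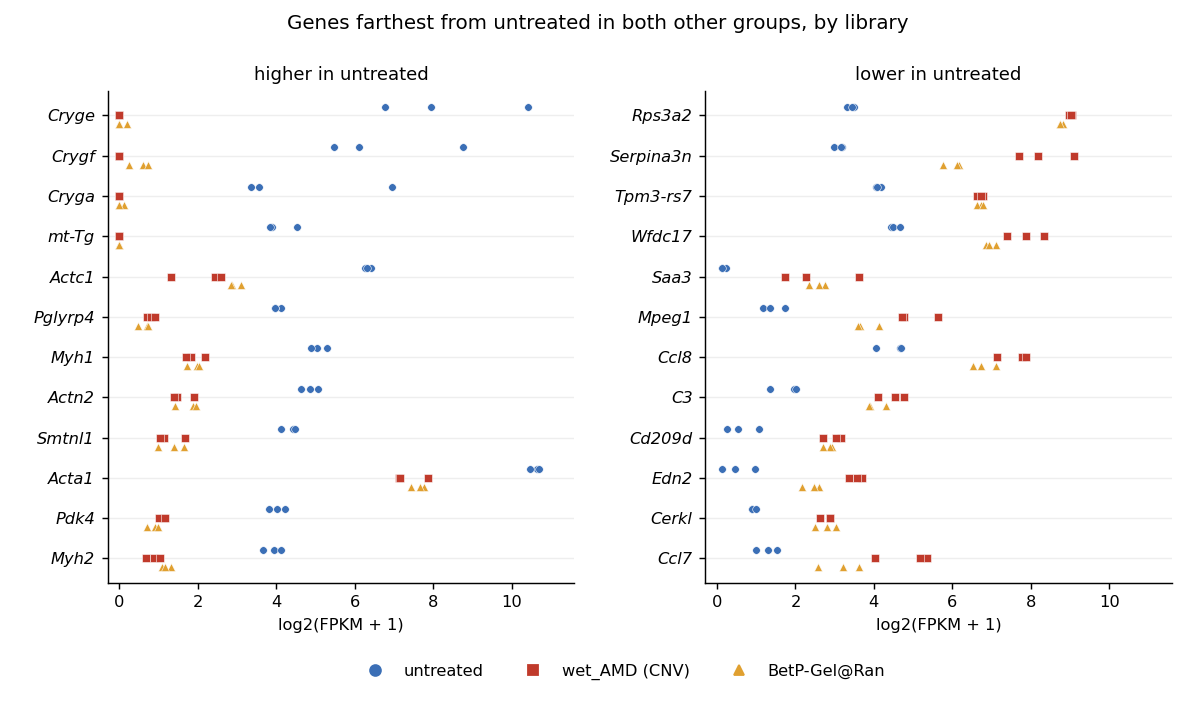
The 12 genes farthest from both other groups on each side, among called genes without overlap and not counting provisional Gm and Rik gene names. The horizontal axis is log2(FPKM + 1), with 1 symbol per library. By this choice the untreated libraries stand clear of all 6 others in each row. The CNV and BetP-Gel@Ran libraries lie together for Myh1, Pdk4, Rps3a2 and Tpm3-rs7 but apart for Serpina3n and Mpeg1.

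Genes of stroma and anterior tissue were higher in part. Of 14 tested genes of corneal stroma and sclera, 9 (64.3%) were higher in untreated tissue and 0 lower, against 22.6% and 22.4% of all genes. The list median was 0.817. Keratocan (Kera), a corneal proteoglycan, was at 47.1, 40.3 and 64.3 FPKM in untreated tissue, at 3.14, 3.10 and 7.46 FPKM in CNV and at 7.76, 8.07 and 13.2 FPKM in gel. Angptl7, an angiopoietin-like protein of the cornea and outflow tissue, was at 417, 358 and 504 FPKM against 46.3 to 89.4 FPKM, a difference of 2.65 ± 0.19. Col1a1, the main fibrillar collagen chain, differed by 1.72 ± 0.19, while Ogn, Ptgds, Col5a1, Col5a2 and Aldh1a3 were not called. Among 16 cornea and surface epithelium genes, 6 (37.5%) were higher and 2 (12.5%) lower, against 22.6% and 22.4% of all genes. The lower count was 0 without untreated replicate 2, untreated replicate 3 or gel replicate 3, and 1 without gel replicate 1 or 2. The 6 higher genes included Krt5, Aldh3a1 and Krt12, the most abundant genes on the higher side. In these and in Tkt gel stood between the groups. Krt4 lay farther from untreated in gel (0.72) than in CNV (0.46), and Pax6 differed by 0.04 from gel and 0.52 from CNV. Aldh3a1, the crystallin-like aldehyde dehydrogenase of the cornea, was at 6639, 5611 and 5915 FPKM in untreated tissue, at 4846, 4032 and 4272 FPKM in gel and at 1245, 1513 and 2704 FPKM in CNV. Krt5, a basal epithelial keratin, went from 5510 to 6367 FPKM in untreated tissue to 3799 to 5173 FPKM in gel and 2902 to 3328 FPKM in CNV. The summed share of red blood cell genes ran from 0.276 to 0.402% of reads in untreated tissue, 0.528 to 1.56% in CNV and 0.268 to 0.923% in gel.

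Neuronal and rod transcripts were higher in untreated tissue, but not those of every retinal cell class. Over all genes, 22.6% were called higher and 22.4% lower. Called higher were 16 of 16 tested genes for retinal ganglion cells, the output neurons of the retina, and 19 of 19 for synaptic vesicles. Counts were 21 of 24 (87.5%) for rods and 6 of 9 (66.7%) for amacrine and horizontal cells. Without untreated replicate 3, 18 of the 24 rod genes were higher and 1 was lower. In the main fit 1 gene of these lists, the amacrine transcription factor Tfap2a, was lower. Among the 9 fits that leave out a library, that call held only without untreated replicate 1, CNV replicate 2 or gel replicate 2. In contrast, 1 of 9 (11.1%) bipolar cell genes was higher (0 without untreated replicate 2), and that gene was Isl1, which ganglion cells share. Cone genes were higher in 3 of 11 (27.3%) and lower in 1 of 11 (9.09%) cases, the former near the share of all genes. The higher count was 5 without untreated replicate 1 and 1 without untreated replicate 3. The medians were 0.983 for ganglion cells, 1.07 for synaptic vesicles, 0.943 for rods, 0.549 for cones and -0.0284 for bipolar cells.

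In ganglion cell genes the CNV libraries were lowest and the gel libraries intermediate. Nefl, the neurofilament light chain of large axons, was at 69.8, 85.0 and 45.7 FPKM in untreated tissue, at 26.9, 33.6 and 31.5 FPKM in gel and at 12.7, 10.6 and 12.8 FPKM in CNV. The transcription factor Pou4f2, which specifies ganglion cells, was at 1.34, 2.07 and 1.20 FPKM in untreated tissue, at 0.445, 0.830 and 0.533 FPKM in gel and at 0.0315, 0.124 and 0.117 FPKM in CNV. Nrn1, a neurite-promoting protein, had the largest difference in the list, 1.85 ± 0.15 (limma adjusted p = 3.05e-05). The gradation was not shared by all members: Stmn2 differed from each group by 1.01, and Rbpms, an RNA-binding protein used to count ganglion cells, overlapped and differed by 0.36 ± 0.11. The list's share of reads was 0.0759 to 0.136% in untreated tissue, 0.0521 to 0.0598% in gel and 0.0322 to 0.0368% in CNV, with untreated replicate 3 lowest of the untreated libraries.

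Of the 19 synapse genes, 5 were also called lower in CNV than in gel, against 5.81% of all genes. The number of genes called between CNV and gel depended on single libraries. Cplx1, complexin of conventional synapses, was at 56.3, 57.3 and 30.03 FPKM in untreated tissue against 16.1 to 18.4 FPKM in gel and 5.83 to 7.79 FPKM in CNV. Its relatives at photoreceptor and bipolar ribbon synapses differed less, Cplx3 by 1.01 ± 0.11 and Cplx4 by 0.55 ± 0.08. Snap25, a core protein of vesicle fusion, differed by 1.71 ± 0.14. Calb2, the calretinin of amacrine and ganglion cells, was at 256, 240 and 145 FPKM in untreated tissue, at 65.5, 73.1 and 69.0 FPKM in gel and at 22.0, 20.6 and 34.8 FPKM in CNV. Stx3, the syntaxin of ribbon synapses, and Ctbp2, whose alternative product is the ribbon protein, showed the same distance from both groups, at 0.67 for Stx3 and 0.25 for Ctbp2.

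Rod genes were higher in untreated tissue along the phototransduction chain. Gnat1, the rod transducin alpha subunit, was at 1400, 1215 and 792 FPKM in untreated tissue, at 362, 336 and 394 FPKM in CNV and at 538, 634 and 467 FPKM in gel, a difference of 1.31 ± 0.17 (limma adjusted p = 0.000372). The phosphodiesterase subunits Pde6b and Pde6g differed by 1.21 ± 0.13 and 1.07 ± 0.11. The rod fate regulators Nrl and Nr2e3 differed by 1.10 ± 0.11 and 1.30 ± 0.10. Nr2e3 gave 63.5, 57.6 and 55.8 FPKM against 19.1 to 27.4 FPKM, with CNV and gel interleaved. The exceptions among the 24 were Cnga1, Rp1 and Gngt1. Gngt1, the transducin gamma subunit, was at 151, 220 and 361 FPKM in untreated tissue and at 248 to 392 FPKM in the others, a difference of -0.42 ± 0.25. The 24 genes of the rod list together took 2.37 to 2.64% of reads in untreated tissue, 0.979 to 1.26% in CNV and 1.27 to 1.72% in gel.

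Glial genes differed in both directions. Of 14 Müller glia and astrocyte genes, 2 (14.3%) were higher and 5 (35.7%) lower in untreated tissue, against 22.6% and 22.4% of all genes. The higher count was 5 without untreated replicate 1, 1 without untreated replicate 2 or 3 and 4 without gel replicate 2. Gfap, the intermediate filament induced in reactive glia, was at 14.5, 15.9 and 13.2 FPKM in untreated tissue. It was at 21.3, 43.8 and 39.5 FPKM in CNV and at 33.9, 41.3 and 37.0 FPKM in gel, so that neither group overlapped with untreated tissue (-1.15 against CNV, -1.31 against gel). Sox9, a glial transcription factor, differed by -1.07 ± 0.12. Glul, the glutamine synthetase of Müller glia, went the other way, with 714, 706 and 638 FPKM in untreated tissue, 433, 395 and 431 FPKM in gel and 278, 300 and 322 FPKM in CNV. Aqp4, the glial water channel, counted as lower in untreated tissue at -1.57 ± 0.13, but it was at 2.10, 2.67 and 2.38 FPKM there and at 2.40, 3.32 and 3.76 FPKM in gel. It was at 27.2, 23.8 and 19.3 FPKM in CNV, and untreated and gel values overlapped. Pigment epithelium genes were mostly not called, with 1 (7.69%) higher and 4 (30.8%) lower of 13. Their higher count was 2 without CNV replicate 2.

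**Figure D3:**
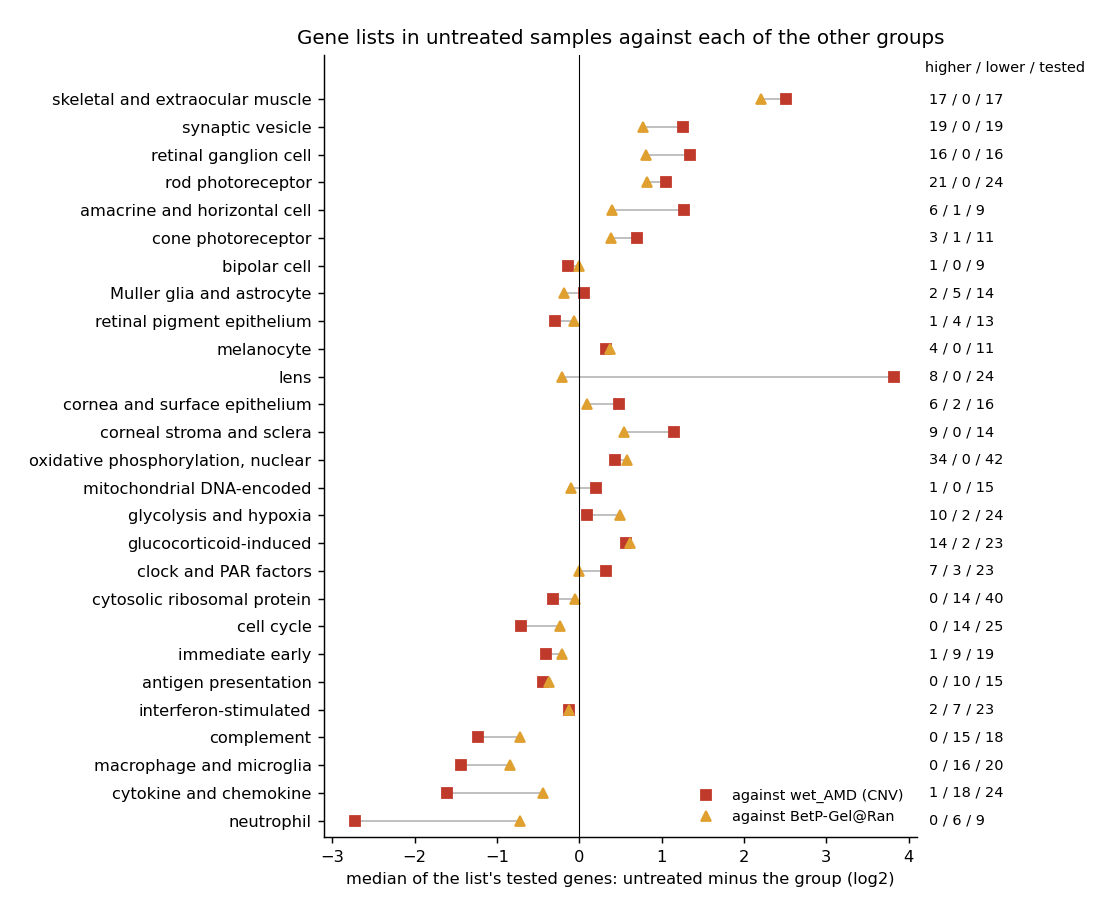
Median difference of each gene list's tested members, untreated minus CNV (squares) and untreated minus BetP-Gel@Ran (triangles), on the log2 scale, with the number of members called higher, called lower and tested at the right. Muscle, nuclear oxidative phosphorylation and glucocorticoid lists have medians of one sign against both groups (muscle 2.51 and 2.21), and the lens list has medians of opposite sign (3.82 and -0.205).

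Nuclear genes of oxidative phosphorylation were mostly higher in untreated tissue, and those of the mitochondrial genome mostly not called. Of 42 nuclear subunit genes, 34 (81%) were called higher and 0 lower, against 22.6% and 22.4% of all genes. Of the 34, 30 did not overlap. Over all genes, 2472 of the 3189 called higher did not overlap (17.5% of those tested). The list median was 0.548. The median was 0.435 against CNV and 0.581 against gel. Of 15 genes encoded in mitochondrial DNA, 1 was called higher (2 without CNV replicate 1), with a median of 0.0508, which became -0.0304 with FPKM divided by its sum. All 42 nuclear genes together took 1.18 to 1.19% of reads in untreated tissue, 0.919 to 0.974% in CNV and 0.812 to 0.864% in gel, while the mitochondrial genes took 2.93 to 3.67%, 2.95 to 3.15% and 3.06 to 4.01%.

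Ndufv1, which holds the NADH site of complex I, was at 73.3, 72.8 and 62.8 FPKM in untreated tissue and at 31.4 to 38.6 FPKM in the other 6 libraries, a difference of 0.98 ± 0.08 (limma adjusted p = 3.7e-05). Atp5b, the catalytic beta subunit of ATP synthase, was at 382, 378 and 350 FPKM against 187 to 217 FPKM. Uqcrc1, a core subunit of complex III, was at 112, 104 and 102 FPKM against 56.9 to 62.2 FPKM. CNV and gel values interleaved for each of these. Among the 8 genes not called were the small subunits Ndufa4, Cox6c, Cox7a2, Cox7b and Uqcrb, with differences between -0.08 and 0.16. Among genes made in the mitochondrion, mt-Co1, the catalytic subunit of complex IV, was at 7564, 7268 and 8665 FPKM in untreated tissue and at 6696 to 9458 FPKM in the others.

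Gene length moved with direction over all genes. Of the genes in the shortest of 3 equal length classes, 26.4% were called higher and 15.1% called lower, against 15.5% and 31.8% in the longest class. Of the 42 nuclear oxidative phosphorylation genes 30 were in the shortest class. Over all genes, 22.6% were called higher and 22.4% lower. Of 40 cytosolic ribosomal protein genes, 28 of them in the shortest class, 0 were higher and 14 (35%) lower. The latter count was 24 with FPKM divided by its sum, 5 without untreated replicate 1, 3 without untreated replicate 2, 8 without CNV replicate 2, 9 and 8 without gel replicates 1 and 3, and 5 with the 6 other libraries as 1 group. The part of length in these results was not tested. Muscle is rich in mitochondria and its transcripts moved with these genes, and its part in this result was not tested either.

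Genes that glucocorticoid hormones induce were mostly higher in untreated tissue. Of 23 tested genes of this list, 14 (60.9%) were called higher and 2 (8.7%) lower, against 22.6% and 22.4% of all genes. The list median was 0.423. Of the 14, 13 did not overlap, and over all genes 2472 of the 3189 called higher (17.5% of those tested). The summed share of reads was 0.393 to 0.432% in untreated tissue, 0.261 to 0.273% in CNV and 0.298 to 0.313% in gel.

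Pdk4, the kinase that shuts pyruvate dehydrogenase during fasting, was at 13.1, 15.2 and 17.6 FPKM in untreated tissue. It was at 1.19, 1.02 and 1.22 FPKM in CNV and at 0.861, 0.631 and 0.989 FPKM in gel, a difference of 3.03 ± 0.10 (limma adjusted p = 3.05e-07). Skeletal muscle also expresses Pdk4. Tsc22d3, the anti-inflammatory GILZ protein, was at 71.0, 58.9 and 67.2 FPKM in untreated tissue, at 26.3, 36.5 and 30.4 FPKM in gel and at 16.0, 12.6 and 20.4 FPKM in CNV. Fkbp5, a chaperone that damps the glucocorticoid receptor, was at 15.8, 13.9 and 14.7 FPKM in untreated tissue, at 8.05, 9.13 and 4.92 FPKM in gel and at 4.07, 3.18 and 4.16 FPKM in CNV. Zbtb16, a zinc finger repressor, was at 2.72, 2.56 and 3.38 FPKM against 0.421 to 0.902 FPKM. The transcription factors Klf9 and Klf15 differed by 0.89 ± 0.07 and 0.84 ± 0.08. Other classical targets did not follow: Sgk1, Dusp1, Cdkn1a and the metallothioneins Mt1 and Mt2 were not called, and Mt1 was at 231, 249 and 290 FPKM in untreated tissue and 226 to 310 FPKM in the others. The acute-phase gene Lcn2, which cytokines also induce, was lower in untreated tissue (-1.33 ± 0.30), as was Errfi1, an inhibitor of EGF receptor signalling (-0.81 ± 0.12).

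Core clock genes showed a mixed picture. In the circadian loop, Clock and Arntl drive the Per, Cry and Nr1d genes through the E-box, and the Per and Cry proteins shut that drive off again. Of 23 clock and PAR factor genes, 7 (30.4%) were called higher and 3 (13%) lower, against 22.6% and 22.4% of all genes. The higher count was 11 without CNV replicate 3. The list median was 0.191, and -0.00929 against gel alone. Per1, which glucocorticoids also induce, was at 14.1, 12.9 and 13.5 FPKM in untreated tissue, at 6.60, 8.09 and 5.99 FPKM in gel and at 4.21, 4.15 and 5.08 FPKM in CNV, a difference of 1.14 ± 0.09 (limma adjusted p = 2.83e-05). The repressor Ciart was at 6.33, 5.53 and 4.58 FPKM against 2.78, 3.65 and 2.89 FPKM in gel and 1.70, 1.56 and 2.25 FPKM in CNV. Cry1 differed by 0.39 ± 0.08 and Cry2 by 0.52 ± 0.10. On the lower side, Clock was at 3.36, 3.81 and 3.32 FPKM in untreated tissue and at 5.49 to 6.68 FPKM in the others, and its paralogue Npas2 differed by -0.49 ± 0.08.

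Other core members were not called. Arntl differed by 0.19 ± 0.09, Per2 by -0.01 ± 0.09 and Per3 by -0.12 ± 0.11. For the output factors Dbp and Hlf and the repressor Nr1d1, the median gel value lay above the median untreated value and the median CNV value below it. Dbp was at 43.8, 41.9 and 41.4 FPKM in untreated tissue, at 41.0, 46.3 and 43.5 FPKM in gel and at 24.9, 23.9 and 37.8 FPKM in CNV. The nuclear receptor Rorb differed by 0.86 ± 0.10, while Rora did not pass the test. Rorb also marks retinal interneurons and rod precursors.

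**Figure D4:**
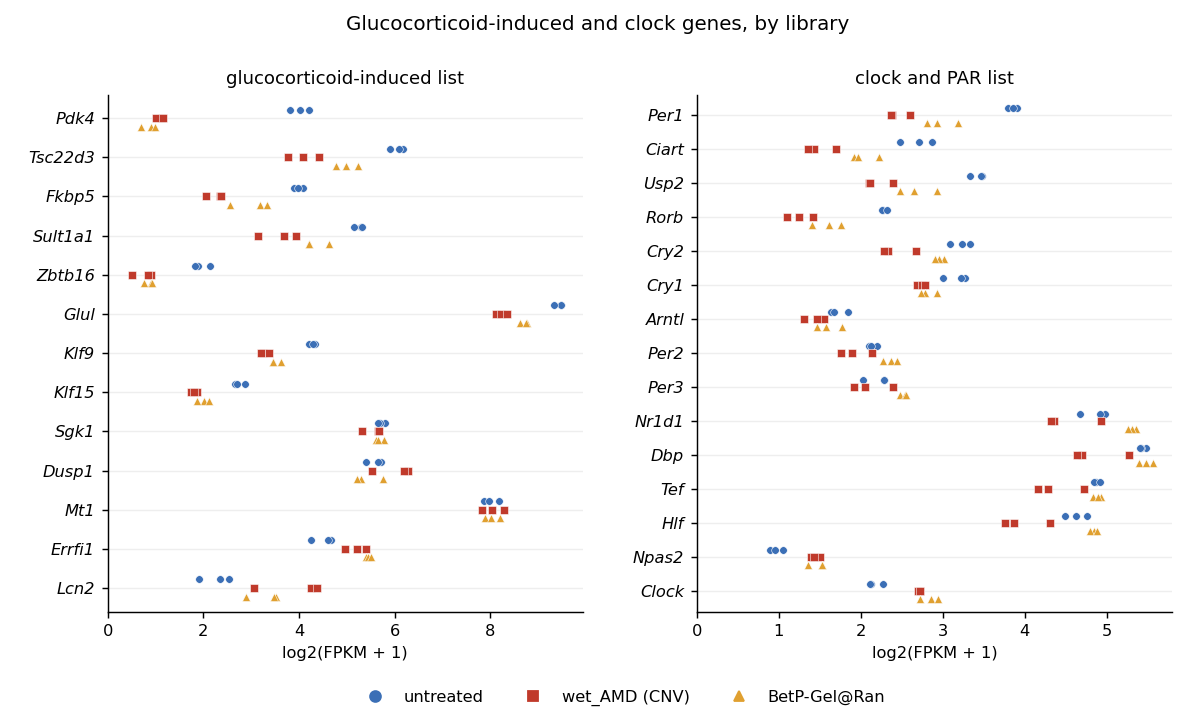
Members of the glucocorticoid-induced list (left) and the clock and PAR list (right), with log2(FPKM + 1) on the horizontal axis and 1 symbol per library. Untreated libraries stand to the right for Pdk4, Tsc22d3, Fkbp5, Per1 and Ciart and to the left for Lcn2, Npas2 and Clock, while Sgk1, Mt1, Per2 and Dbp show groups that overlap.

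Of the clock list, 19 genes had a promoter in the RefSeq table (250 bases before to 50 after the start site, GRCm38.p6). The E-box CACGTG, which reads alike on both strands, was in 5 of the 19 (Per1, Cry1, Tef, Ciart and Bhlhe41) and in 7.15% of 32851 promoters, or 8.09% of 27025 genes. The D-box TTATGTAA, on either strand, was in 1 of the 19 (Per3) and in 0.938% of promoters (1.11% of genes). The E-box was thus present both in called genes and in genes that were not called (Tef and Bhlhe41). The 3 promoters of called genes are shown because they carry the motif of the loop just described, in capitals. They lie at chr11:69098699-69098998 (plus strand) for Per1, chr10:85185005-85185304 (minus strand) for Cry1 and chr3:95882179-95882478 (minus strand) for Ciart, each written 5′ to 3′ along the gene. A match is a stretch of letters and says nothing of binding here.
Per1: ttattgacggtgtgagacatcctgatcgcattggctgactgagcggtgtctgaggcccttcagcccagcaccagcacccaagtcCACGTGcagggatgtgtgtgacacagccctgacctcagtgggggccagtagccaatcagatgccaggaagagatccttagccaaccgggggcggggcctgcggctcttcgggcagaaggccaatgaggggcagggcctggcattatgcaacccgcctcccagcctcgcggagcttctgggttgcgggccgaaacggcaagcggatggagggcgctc
Cry1: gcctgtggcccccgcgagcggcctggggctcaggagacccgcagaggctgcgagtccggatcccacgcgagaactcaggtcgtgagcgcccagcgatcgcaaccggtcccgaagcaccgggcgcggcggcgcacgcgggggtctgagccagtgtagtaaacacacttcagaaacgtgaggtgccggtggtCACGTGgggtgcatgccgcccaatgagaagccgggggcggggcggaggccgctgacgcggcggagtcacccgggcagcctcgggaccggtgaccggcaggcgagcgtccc
Ciart: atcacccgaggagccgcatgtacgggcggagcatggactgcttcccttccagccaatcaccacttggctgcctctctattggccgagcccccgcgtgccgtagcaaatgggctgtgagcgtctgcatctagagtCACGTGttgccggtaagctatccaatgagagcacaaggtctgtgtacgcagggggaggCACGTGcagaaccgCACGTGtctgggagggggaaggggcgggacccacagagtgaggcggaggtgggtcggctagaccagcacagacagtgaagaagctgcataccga

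Ciart carried 3 copies of the motif within these bases, and Per1 and Cry1 carried 1 each. Heat shock genes gave a further contrast between motif and call. The HSF pair GAANNTTC was in 10 of 13 heat shock genes with a promoter and in 7.86% of all promoters (9.04% of genes). Of the 18 tested genes of the list, 6 (33.3%) were higher and 2 (11.1%) lower, against 22.6% and 22.4% of all genes. The lower count was 1 without untreated replicate 1. Hspa1a, the inducible Hsp70, was at 37.2, 31.1 and 25.3 FPKM in untreated tissue and at 12.8 to 23.9 FPKM in the others. Chordc1, which carries the pair as well, was lower in untreated tissue (-0.44 ± 0.07).

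Myeloid transcripts were lower in untreated tissue. Of 20 macrophage and microglia genes, 16 (80%) were called lower, against 22.4% of all genes. All 16 were without overlap, as were 2348 of the 3158 genes called lower over all genes (16.7% of those tested). The list median was -1.12. The list took 0.0748 to 0.0797% of reads in untreated tissue, 0.147 to 0.176% in gel and 0.247 to 0.354% in CNV. The ranges of the 3 groups did not overlap, and gel lay between. Lyz2, the lysozyme of macrophages and neutrophils, was at 204, 227 and 236 FPKM in untreated tissue, at 623, 486 and 601 FPKM in gel and at 1224, 1333 and 915 FPKM in CNV (-1.85 ± 0.13, limma adjusted p = 1.47e-05). Mpeg1, a pore-forming protein of phagocytes, was at 1.25, 1.55 and 2.33 FPKM in untreated tissue, at 11.5, 11.2 and 16.6 FPKM in gel and at 26.3, 48.4 and 25.5 FPKM in CNV. Other members lay at a like distance in both groups. Cx3cr1, the fractalkine receptor of microglia, gave -0.83 against CNV and -0.84 against gel, and was at 0.462 to 0.729 FPKM in untreated tissue and 1.48 to 2.14 FPKM in the others. P2ry12, a purinergic receptor of resting microglia, differed by -0.75 ± 0.12. The resident markers Tmem119, Cd163 and Lyve1 were not called, and Lyve1 was at 6.15 to 7.73 FPKM in untreated tissue and 4.02 to 6.78 FPKM in the others.

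Several neutrophil genes were far higher in CNV than in either other group. In that list 6 of 9 (66.7%) were called lower in untreated tissue, against 22.4% of all genes. However, 3 of the 6 overlapped, and 3 were called with the 6 other libraries as 1 group. Between CNV and gel, where the total of calls depended on single libraries, all 9 were called higher in CNV, against 8.27% of all genes. S100a8, a subunit of calprotectin, was at 3.65, 4.79 and 2.86 FPKM in untreated tissue, at 131, 225 and 106 FPKM in CNV and at 3.62, 2.79 and 37.6 FPKM in gel, where replicate 3 stood apart. Clec4d, a C-type lectin of neutrophils and monocytes, did not overlap, at 0.221 to 0.423 FPKM in untreated tissue, 1.25 to 2.58 FPKM in gel and 12.8 to 28.2 FPKM in CNV.

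Complement genes were lower in untreated tissue from C1 to the receptors. Of 18 complement genes, 15 (83.3%) were called lower and 0 higher, against 22.4% and 22.6% of all genes. All 15 were without overlap, as were 2348 of the 3158 genes called lower over all genes (16.7% of those tested). The list median was -1. C3, the central component, was at 2.90, 3.07 and 1.55 FPKM in untreated tissue, at 26.4, 16.2 and 22.2 FPKM in CNV and at 18.9, 14.0 and 13.6 FPKM in gel (-2.47 ± 0.19, limma adjusted p = 2.33e-05). C4b was at 3.88, 3.76 and 4.30 FPKM against 12.4 to 13.3 FPKM in CNV and 10.9 to 15.6 FPKM in gel, and its distance from untreated was -1.47 in either group. C1s1, the protease that cleaves C4, was at 11.7, 12.2 and 12.2 FPKM against 21.8 to 27.2 FPKM. C1qa, a C1q chain made by macrophages, was at 63.7 to 66.3 FPKM in untreated tissue, 86.7 to 123 FPKM in gel and 142 to 213 FPKM in CNV. The receptor chain Itgam was at 3.23 to 5.35 FPKM in untreated tissue, 10.3 to 12.05 FPKM in CNV and 11.7 to 13.5 FPKM in gel. The regulators Serping1 and Cd55 and the protease Cfd were not called. The C1 inhibitor Serping1 was at 83.0 to 102 FPKM in untreated tissue and 79.6 to 116 FPKM in the others.

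Class II antigen presentation genes were lower in untreated tissue. Of 15 antigen presentation genes, 10 (66.7%) were called lower in untreated tissue and 0 higher, against 22.4% and 22.6% of all genes. The list median was -0.351. H2-Aa, a class II alpha chain, was at 27.9, 27.3 and 32.6 FPKM in untreated tissue, at 58.3, 37.9 and 63.4 FPKM in CNV and at 77.3, 65.3 and 76.9 FPKM in gel. Cd74, the invariant chain that guides class II molecules, was at 64.7, 69.3 and 78.4 FPKM in untreated tissue, at 109, 79.2 and 123 FPKM in CNV and at 146, 141 and 155 FPKM in gel. For H2-Aa and Cd74 gel was the highest group, and CNV and gel did not overlap. CNV differed from gel for Cd74 with a limma adjusted p of 0.046 and for H2-Aa with one of 0.0926. The class I genes H2-K1 and H2-D1 differed by -0.26 ± 0.07 and -0.35 ± 0.07, and the transporter genes Tap1 and Tap2 were not called.

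Chemokines were lower in untreated tissue, some against both groups and some against CNV only by their values. Of 24 genes tested, 18 (75%) were called lower in untreated tissue and 1 (4.17%) higher, against 22.4% and 22.6% of all genes. The higher call was lost in 7 of the 9 fits without a library (it held without untreated replicate 3 and CNV replicate 3). The list median was -0.98, with -1.61 against CNV and -0.443 against gel. Between CNV and gel, 18 of the 24 were called higher in CNV, against 8.27% of all genes. The total of such calls depended on single libraries. With the 6 other libraries as 1 group, 11 were called lower. Among monocyte attractants without overlap, Ccl8 was at 15.7, 24.4 and 24.6 FPKM in untreated tissue, at 218, 232 and 140 FPKM in CNV and at 136, 91.6 and 106 FPKM in gel. Ccl7 was at 1.91, 0.984 and 1.47 FPKM, with 4.92, 8.30 and 11.2 FPKM in gel and 39.9, 34.9 and 15.3 FPKM in CNV. Cxcl12, a retention signal for leukocytes, differed by -1.21 ± 0.09. Others overlapped between untreated and gel. Ppbp, a platelet and neutrophil chemokine, was at 1490, 1809 and 706 FPKM in CNV, but at 0.915 to 2.65 FPKM in untreated tissue and 2.46 to 13.2 FPKM in gel. Cxcl5 was at 57.2 to 122 FPKM in CNV, 1.90 to 2.76 FPKM in untreated tissue and 1.64 to 4.04 FPKM in gel. The inflammatory cytokine Il1b was at 0.402 to 0.502 FPKM in untreated tissue, 17.0 to 34.0 FPKM in CNV and 0.436 to 2.75 FPKM in gel. The acute-phase gene Saa3 did not overlap, with 0.0904, 0.173 and 0.0951 FPKM in untreated tissue, 3.82, 11.3 and 2.35 FPKM in CNV and 5.76, 4.103 and 5.11 FPKM in gel. Serpina3n, a protease inhibitor of reactive astrocytes, was at 6.96 to 8.08 FPKM in untreated tissue, 52.9 to 70.4 FPKM in gel and 205 to 550 FPKM in CNV.

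Several of the widest gaps between untreated tissue and both other groups concerned genes with close copies or relatives in the genome. Reads of such genes can be assigned to another copy. Whether read assignment or expression lay behind these values was not tested. Rps3a2, a processed pseudogene of ribosomal protein S3a (chromosome 14, 88123017 to 88123808, mm10, minus strand), was at 10.3, 8.96 and 9.86 FPKM in untreated tissue. It was at 504, 525 and 524 FPKM in CNV and at 425, 454 and 429 FPKM in gel, a difference of -5.47 ± 0.07 (limma adjusted p = 1.16e-10). Of the reads of Rps3a1 and Rps3a2 together, Rps3a2 held 0.467 to 0.54% in untreated libraries and 20.9 to 23.1% in the others. The pair's sum differed far less, at 1463 to 1671 in untreated tissue on the depth-scaled CPM scale and 1583 to 1897 in the others.

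Tpm3-rs7, a copy of the tropomyosin gene Tpm3 on chromosome 14, was divided alike. It was at 17.1, 15.6 and 15.9 FPKM in untreated tissue and at 97.6 to 110 FPKM in the others, and held 8.04 to 8.84% of the pair's reads against 61.1 to 68.5%. Tpm3 itself was the mirror image, at 57.8 to 63.3 FPKM against 17.8 to 23.6 FPKM. The pair's sum was 386.1 to 421.9 CPM in untreated tissue and 332.8 to 369.6 in the others.

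The gamma crystallins, structural proteins of lens fibres that lie in a cluster on chromosome 1, also divided by group. Cryga, Cryge and Crygf together held 20 to 34.6% of the reads of 6 gamma crystallins in the untreated libraries. In gel, where the 6 genes still drew 2352 to 6438 reads a library, they held 0.085 to 0.187%. In CNV they held 0 of 203 and 0 of 57 reads in replicates 1 and 3, which allows shares of up to 1.48% and 5.26% (3 reads, counting error only), and replicate 2 had no read of the 6 genes. Cryge alone was at 108, 244 and 1369 FPKM in untreated tissue and was listed at 0 in 5 of the other 6 libraries. Of the lens list as a whole, 8 of 24 genes (33.3%) were higher, against 22.6% of all genes. Of the 8, 6 were these gamma crystallins, and the rest were Crybb3 and Crygn. Without untreated replicate 3, 5 of 20 tested lens genes were called higher, and without untreated replicate 1, 5 of 21. With the 6 other libraries as 1 group, 4 of 24 were called.

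**Figure D5:**
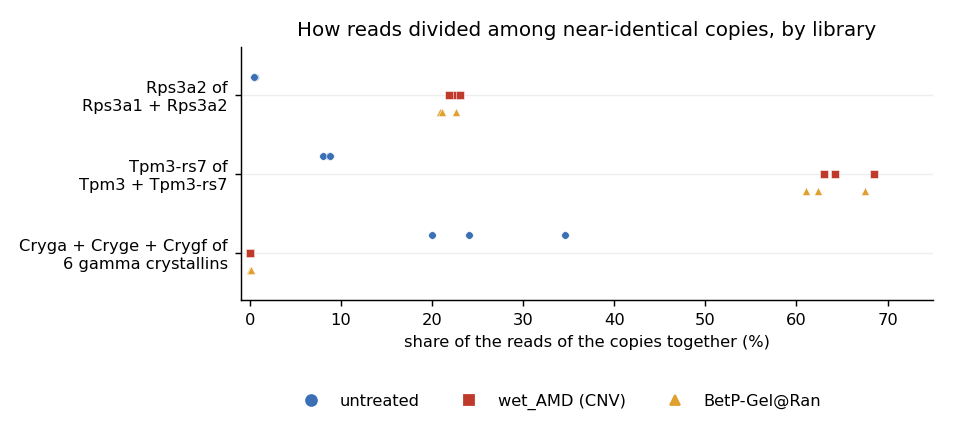
Share of the reads of a set of related genes (%, horizontal axis) that went to Rps3a2, to Tpm3-rs7, and to Cryga, Cryge and Crygf together, with 1 symbol per library. The untreated libraries stand apart from both other groups in each row, and CNV replicate 2 is missing in the last row because it had no such read.

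mt-Nd3 was the called gene of the mitochondrial list. It was at 69.1, 72.7 and 99.9 FPKM in untreated tissue, at 29.4, 27.0 and 28.0 FPKM in CNV and at 21.6, 28.3 and 38.2 FPKM in gel (1.45 ± 0.17, limma adjusted p = 0.000203). The transfer RNA gene mt-Tg, which ends where mt-Nd3 begins, had 16, 16 and 24 reads in the untreated libraries and 0 in each of the other 6, at least 6.68-fold higher in untreated tissue against a floor of 3 reads per library. Gm28438, a pseudogene on chromosome 1 noted after its values were seen, was at 19.5, 19.9 and 25.1 FPKM in untreated tissue and at 146 to 224 FPKM in the others. Gapdh, a glycolytic gene with many pseudogenes and also noted after its values were seen, was listed at 0.87 to 2.61 FPKM in 8 libraries and at 31.6 FPKM in CNV replicate 2.

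Of all 54532 genes in the table, 19 had reads in each untreated library and were at 0 in the other 6, and 53 were at 0 in untreated tissue with reads in each of the other 6. Most of both sets held few reads. Ifnl2, a type III interferon, was at 5.62, 3.37 and 4.24 FPKM in untreated tissue and at 0 in the others, at least 18.6-fold higher. Its near-identical neighbour Ifnl3 was at 7.29, 4.16 and 4.26 FPKM against 0 to 0.0981 FPKM. In the other direction F10, coagulation factor X, was at 0 in untreated tissue, at 2.42, 4.86 and 2.02 FPKM in CNV and at 0.397, 0.548 and 0.474 FPKM in gel, at least 27.6-fold lower in untreated tissue relative to the mean of the 6.

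Step-like genes were then selected after their values were seen: at least 4-fold from untreated in both groups, with the group means within 1.25-fold of each other. There were 56, 32 higher and 24 lower in untreated tissue. Of the 32 higher ones, 5 were members of the muscle list (Myh1, Actn2, Acta1, Actn3 and Eno3). Among the lower ones were Cerkl and Itga4, which overlap at their ends on opposite strands of chromosome 2, so that an unstranded library cannot divide reads there. Cerkl, a ceramide kinase-like gene of the retina (79330543 to 79456785, mm10, minus strand), was at 0.847, 0.842 and 1.01 FPKM in untreated tissue and at 4.67 to 7.26 FPKM in the others. Itga4, the alpha4 integrin of leukocytes (79255426 to 79333123, plus strand), was at 0.451, 0.540 and 0.465 FPKM against 2.04 to 2.74 FPKM. Wdfy1, an endosomal adaptor, was at 1.15 to 1.32 FPKM in untreated tissue and at 4.996 to 6.03 FPKM in the others (-1.53 ± 0.06). Cdkn2a, which encodes the cell cycle inhibitors p16 and p19Arf, was at 0.0503, 0.0480 and 0 FPKM in untreated tissue, at 1.16, 1.70 and 0.961 FPKM in CNV and at 2.29, 0.709 and 1.11 FPKM in gel. The immunoglobulin light chain gene Igkc was at 0.847 to 1.16 FPKM against 2.56 to 10.1 FPKM. Pglyrp4, a peptidoglycan recognition protein of epithelia that was not part of that selection, was at 16.3, 14.6 and 14.5 FPKM in untreated tissue and at 0.398 to 0.883 FPKM in the others. Within the selection on the higher side, Mir124-2hg, the host transcript of a neuronal microRNA, was at 21.2, 21.8 and 27.1 FPKM against 3.60 to 5.58 FPKM.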

How the data were processed

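Bulk RNA-seq of 9 libraries was used, 3 per group. The authors deposited FPKM per gene, from reads assigned to genes with HTSeq 0.6.0 on build mm10, per the submitters' processing notes. Aligner, annotation and filters are not given in the sources used here. Strand was not marked by the kind of library kit that the labels' protocols name. Multiplying FPKM by gene length and dividing by the worth of 1 read gave whole reads for 100% of values (tolerance 0.05), or 16990118 to 18753737 reads per library.

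Log2(FPKM + 1) was fitted with limma 3.58.1 (R 4.3.3, statmod 1.5.0, intensity trend, robust) for genes with FPKM of at least 1 in 3 libraries, 1 group mean each, and contrast weights 1, -0.5 and -0.5. P-values were Benjamini-Hochberg adjusted over all 14086 tested genes, with a threshold of 0.05. CNV was compared with gel in the same fit. Untreated against each group is given side by side, since these comparisons share the untreated libraries. The members and gene lists were chosen with earlier results of these data known. Named genes are list members, the 12 genes without overlap that lay farthest from both groups in each direction (provisional Gm and Rik gene names not counted), up to 6 genes per direction at 0 on one side, the 5 per direction that differed most between CNV and gel, and the 5 most abundant called per direction; others are marked in the text. Alternatives changed the pseudocount, filter, scaling, variance model, grouping and block, left out each library, and used limma voom on the recovered reads. In simulated data with 14086 genes, 95% of 100 genes changed by 1 (log2) and 61% of 100 changed by 0.5 were recovered, and 6.02% of called genes were unchanged. Only these genes were changed there, none of them at low levels, and the noise was independent between genes. In the data 45.1% of genes were called, so the simulation does not give the error rates of this comparison. Same-numbered libraries did not deviate together (r from -0.148 to 0.0841 over 9 pairs), so the numbers were not used to pair them. A few genes are not reported here.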

Additional observations from a re-analysis of the deposited data

How the results depend on the processing

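Counts of genes higher and lower in untreated tissue stayed within 1.5 times the reported ones in all settings but one, in which a filter of 5 FPKM left 1708 lower genes (and 1215 lower without overlap). Leaving out 1 library gave 2402 to 3182 genes higher and 2521 to 3190 lower, with 2189 to 2618 higher and 2239 to 2445 lower without overlap. With FPKM divided by its sum, 1569 genes were higher without overlap. Quantile normalization called 2902 higher and 3327 lower, and limma voom on recovered reads 3271 and 3191. With the replicate number as a block, 3108 genes were higher and 3026 lower. The count between CNV and gel was less stable: 853 with no filter on low values, 3362 with array weights, and 253 to 3089 without 1 library; the cause was not tested. Followed over the settings were 419 named or listed genes, all chosen as called in the main comparison. Of these, 290 were called in every setting that tested them, and none reversed direction. Of 1297 list counts over the settings, 184 moved by over 1.5 times. With the 6 other libraries as 1 group, the lower counts became 3 for neutrophil, 11 for cytokine, 5 for ribosomal and 6 for cell cycle genes. Depth limits genes of a few reads, and close copies may limit single-gene values, which was not tested.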

Other observations

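Further genes differed between untreated tissue and the other groups. Serpinf1, which encodes the anti-angiogenic factor PEDF, was at 270, 210 and 273 FPKM in untreated tissue, at 70.8, 54.7 and 92.3 FPKM in CNV and at 107, 125 and 140 FPKM in gel (1.40 ± 0.16, limma adjusted p = 0.000203). Vegfa, the main angiogenic growth factor, was not called, at 5.27 to 6.91 FPKM in untreated tissue, 7.38 to 11.4 FPKM in CNV and 5.47 to 6.33 FPKM in gel. Vegfb was higher in untreated tissue, at 47.7 to 52.5 FPKM against 29.6 to 35.2 FPKM. Of 18 VEGF and angiogenesis genes, 3 (16.7%) were higher and 6 (33.3%) lower, against 22.6% and 22.4% of all genes.

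Antioxidant genes moved in both directions, with 7 (26.9%) higher and 10 (38.5%) lower of 26, against 22.6% and 22.4% of all genes. Their median of 0.0205 became -0.0587 with FPKM divided by its sum. Gpx3, the secreted glutathione peroxidase, was at 132, 121 and 113 FPKM in untreated tissue and at 335 to 430 FPKM in the others. Hmox1, haem oxygenase, was at 9.86, 8.94 and 14.0 FPKM, with 23.6 to 34.0 FPKM in gel and 34.3 to 110 FPKM in CNV. Muc1, a membrane mucin of surface epithelia, was at 16.2 to 17.2 FPKM in untreated tissue, 43.2 to 47.9 FPKM in gel and 71.3 to 90.1 FPKM in CNV. Hspa5, the chaperone of the endoplasmic reticulum, was at 37.6 to 41.1 FPKM, 52.3 to 56.6 FPKM and 62.0 to 77.8 FPKM in the same order. Col9a1, a collagen of the vitreous and ciliary epithelium, was at 4.60, 5.03 and 4.05 FPKM in untreated tissue and at 0.754 to 1.06 FPKM in the others.

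Some cell cycle genes were lower in untreated tissue. Of 25, 14 (56%) were called lower and 0 higher, against 22.4% of all genes lower. The lower count was 9 without untreated replicate 1, 6 with the 6 other libraries as 1 group, and 3 of 9 tested with a filter of 5 FPKM. Mki67, a proliferation marker, was at 0.498, 0.638 and 0.517 FPKM against 1.17 to 3.301 FPKM. Of 19 immediate early genes, 9 (47.4%) were called lower and 1 (5.26%) higher, against 22.4% and 22.6% of all genes. Fosb was at 0.367 to 0.785 FPKM in untreated tissue and at 1.87 to 3.95 FPKM in the others, and Fos was not called.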
